A study of Mus musculus with 6 samples.

Results

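The genes described here encode the lecticans aggrecan (Acan), brevican (Bcan), neurocan (Ncan) and versican (Vcan), the link protein Hapln1, the tenascins Tnr and Tnc, the transmembrane proteoglycans Cspg5 and Ptprz1, and the secreted glycoprotein reelin (Reln). They were picked out by gene symbol, and all 10 were found among the 24060 genes of the count table. RNA was sequenced from retinal ganglion cells (RGCs), the projection neurons of the retina, of C57BL/6 mice. There were 3 samples at embryonic day 18 (E18), numbered 1, 3 and 4, and 3 at postnatal day 5 (P5), numbered 6, 8 and 9. All 6 were prepared by immunopanning, in which macrophages are first removed with antibodies and RGCs are then held on a dish by an antibody against CD90 (Thy1), and no sample carried a transgene or a treatment. The labels do not say how many animals or litters gave each sample, so p-values measure the spread between these samples, part of which may be technical.

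Lecticans are large proteoglycans whose protein core carries chondroitin sulfate chains. One end of the core binds hyaluronan, a long sugar polymer at the cell surface, and link proteins such as Hapln1 lock that bond. The other end binds tenascins, of which trimeric tenascin-R holds several lecticans together. In the central nervous system this mesh condenses into perineuronal nets as neurons mature, and chondroitin sulfate proteoglycans are known for hindering axon growth. Neurocan and versican are the lecticans known from young nervous tissue, and aggrecan, brevican, Hapln1 and tenascin-R are known from mature nets. Reelin, a secreted glycoprotein that signals through lipoprotein receptors, guides the position of neurons and the layering of their inputs.

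Gene counts summed to 81213639 in the shallowest sample and 114512853 in the deepest. Expression is given as CPM, a read count scaled to library size after correction by trimmed mean of M-values (TMM) factors. The RGC marker Rbpms was abundant at both ages, with 293 ± 23.7 CPM in E18 samples and 315 ± 21.5 CPM in P5 samples (SD, n = 3 each). Thy1, the antigen used for the panning, was lower at E18, with 247 ± 56.2 against 553 ± 119.7 CPM (SD, n = 3 each). Atoh7, another gene of the RGC list, had at most 0.663 CPM in any sample. The RGC list of 15 genes, 2 higher and 6 lower at E18, summed to 6684 to 7624 CPM at E18 and 7707 to 9058 at P5. E18 replicates 1 and 3 stood apart in markers of other retinal cells. The 12 retinal progenitor genes summed to 318, 140 and 43.7 CPM in E18 replicates 1, 3 and 4 against 26.5 to 39.2 at P5, and Tfap2b, an amacrine and horizontal cell factor, had 47.5, 119 and 1.62 CPM against 1.02 to 1.55. Replicate 1, highest in progenitor genes, may be a pool, since its column name also carries the numbers 2 and 5. Photoreceptor genes summed to at most 11.6 CPM and microglial genes to at most 3.29 CPM in any sample. Members were therefore also tested with E18 replicate 4 alone, a fit of 1 sample against 3 in which the lone sample is assumed to vary like the P5 samples. In such bulk samples, fewer cells of a type and less RNA per cell cannot be told apart.

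All 10 genes passed the filter on low counts, Acan only through its P5 samples, since each E18 sample had under 10 Acan reads. By edgeR's quasi-likelihood test at an adjusted p under 0.05, 3 members were higher at E18 and 5 were lower, and 2 did not pass. Of all 16449 genes tested, 43.4% passed, 20.8% higher and 22.5% lower at E18. At least 2-fold differences past the threshold were found in 6 of the 10 members, against 15.9% of all genes. The median log2 fold change of E18 over P5 was -0.82 over the members and 0.00 over all genes tested. The E18 and P5 values did not overlap in 8 members, against 56.1% of all genes. Leaving out Acan, 3 members were higher and 4 lower, and 5 of 9 passed with at least a 2-fold difference. The median log2 fold change of these 9 members was -0.39, and the ages did not overlap in 7 of them. With E18 replicate 4 alone, every member kept the direction of its log2 fold change, from -4.08 for Hapln1 to 2.10 for Vcan.

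**Figure D1:**
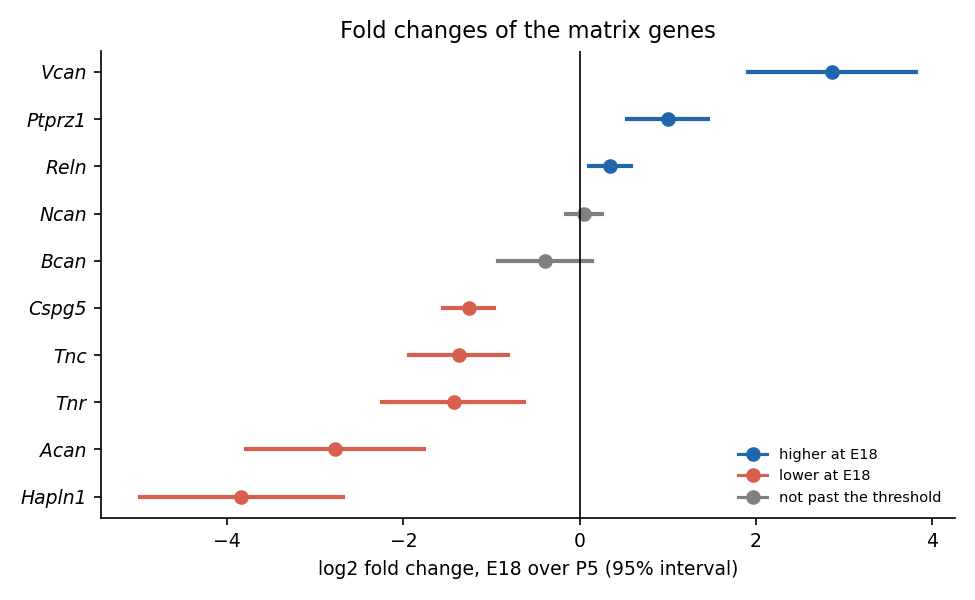
Log2 fold change of E18 over P5 for each of the 10 genes (points) with its 95% interval from the edgeR fit (bars), coloured by direction and grey where the adjusted p was not under 0.05. Vcan stood highest at 2.87 and Hapln1 lowest at -3.84, and the interval of Ncan was the narrowest, from -0.15 to 0.25.

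Among the lecticans, neurocan was abundant and level between the ages. Ncan (ENSMUSG00000002341.8, chromosome 8 of mm10, 70093085 to 70120873, minus strand) had 292, 305 and 338 CPM in E18 replicates 1, 3 and 4 and 293.5, 310.9 and 299.5 CPM in P5 replicates 6, 8 and 9. The ages overlapped, with means of 312 ± 24.0 and 301 ± 8.84 CPM (SD, n = 3 each). Between the ages Ncan differed by 0.05 on the log2 scale with a 95% interval of -0.15 to 0.25 (edgeR adjusted p = 0.681).

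Versican showed the largest rise at E18 of the group. Vcan (ENSMUSG00000021614.16, chromosome 13, 89655312 to 89742509, minus strand) had 234, 403 and 155 CPM in E18 replicates 1, 3 and 4 and 37.1, 52.1 and 19.3 CPM in P5 replicates 6, 8 and 9. Every E18 sample lay above every P5 sample, and the spread within an age was wide. The log2 fold change was 2.87 (SE = 0.421, edgeR adjusted p = 0.0013), a 7.29-fold difference. E18 replicate 3 was the highest in Vcan and also in the summed amacrine and horizontal cell list, which had 787, 982 and 657 CPM in E18 replicates 1, 3 and 4 against 548 to 667 at P5. Pax6 made up most of each sum, with 661, 751 and 622 CPM in those E18 samples against 498.0 to 628.5 at P5. The sums therefore say little about the other genes of the list. Of that list, 4 of the 10 genes tested were higher at E18 and none lower, and the part of such cells in the result was not tested. With E18 replicate 4 alone, in which Tfap2b was near its P5 level, the log2 fold change of Vcan was 2.10 (edgeR adjusted p = 0.00597). Versican is made in several splice forms that differ in the exons that carry the sugar chains, and gene counts do not separate them.

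The remaining lecticans were scarce at both ages. Bcan (ENSMUSG00000004892.13, chromosome 3, 87987531 to 88000230, minus strand) had 2.07, 1.83 and 2.15 CPM in E18 replicates 1, 3 and 4 and 3.03, 1.95 and 2.96 CPM in P5 replicates 6, 8 and 9. P5 replicate 8 lay among the E18 samples, and the log2 fold change of -0.39 did not pass (95% interval -0.92 to 0.14, edgeR adjusted p = 0.201). Without P5 replicate 8 it was -0.59 and passed (edgeR adjusted p = 0.0328). Aggrecan, the core lectican of mature nets, was the least expressed member. Acan (ENSMUSG00000030607.7, chromosome 7, 79053483 to 79115099, plus strand) had 9, 5 and 6 reads in E18 replicates 1, 3 and 4 and 50, 33 and 56 reads in P5 replicates 6, 8 and 9. As CPM these were 0.0446 to 0.108 at E18 and 0.335 to 0.595 at P5, with no overlap. The log2 fold change was -2.78 (SE = 0.443, edgeR adjusted p = 0.00181), with means of 0.0731 ± 0.0325 and 0.498 ± 0.142 CPM (SD, n = 3 each). Since Acan entered the test only through the P5 samples, in which it is high, its call and fold are given as a description.

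**Figure D2:**
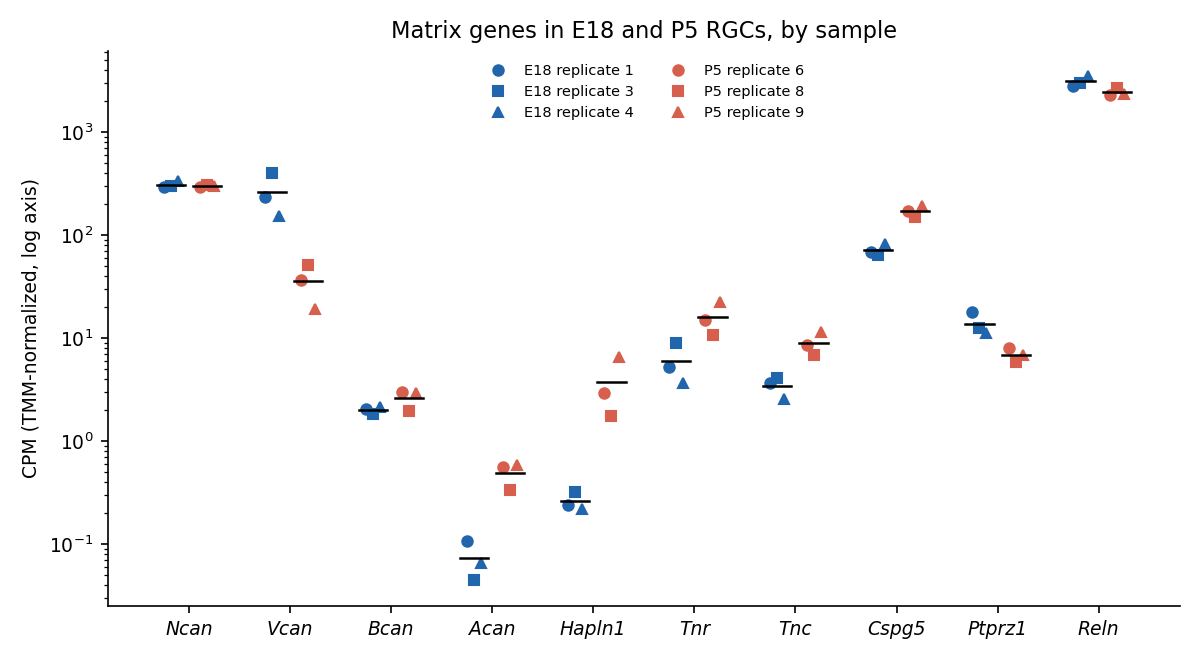
CPM on a log axis of each gene in the 3 E18 samples (blue) and the 3 P5 samples (red), with symbols for replicates and black bars for the mean of each age. The samples span from 0.0446 CPM for Acan to 3530 CPM for Reln, and the ages overlap for Ncan and Bcan.

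To compare the lecticans with each other, CPM was divided by the length of their exons. Per kilobase, the lecticans summed to 58.6, 73.0 and 59.2 CPM in E18 replicates 1, 3 and 4 and to 44.6, 47.8 and 44.1 CPM in P5 replicates 6, 8 and 9. Neurocan and versican, the early pair, made up 99.0% ± 0.206 of lectican transcript per length at E18 against 98.0% ± 0.538 at P5 (SD, n = 3 each). All E18 shares lay at or above 98.8% and all P5 shares at or below 98.6%, which gives an exact permutation p of 0.1 (two-sided), the smallest that 3 samples against 3 allow. Over the pair of shares tested, its adjusted p was 0.2 (exact permutation, Benjamini-Hochberg). The makeup within the early pair shifted. Versican, in a share chosen after the values were seen and not tested, made up 29.7%, 41.2% and 19.5% of lectican transcript in E18 replicates 1, 3 and 4 and 6.20%, 8.13% and 3.26% in P5 replicates 6, 8 and 9. These shares depend on the length taken for Vcan, since the transcript that the count table names for it has 2273 bases against 13406 in all its exons. With the shorter length, versican made up 70.2% ± 10.9 at E18 against 26.3% ± 8.99 at P5 (SD, n = 3 each).

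**Figure D3:**
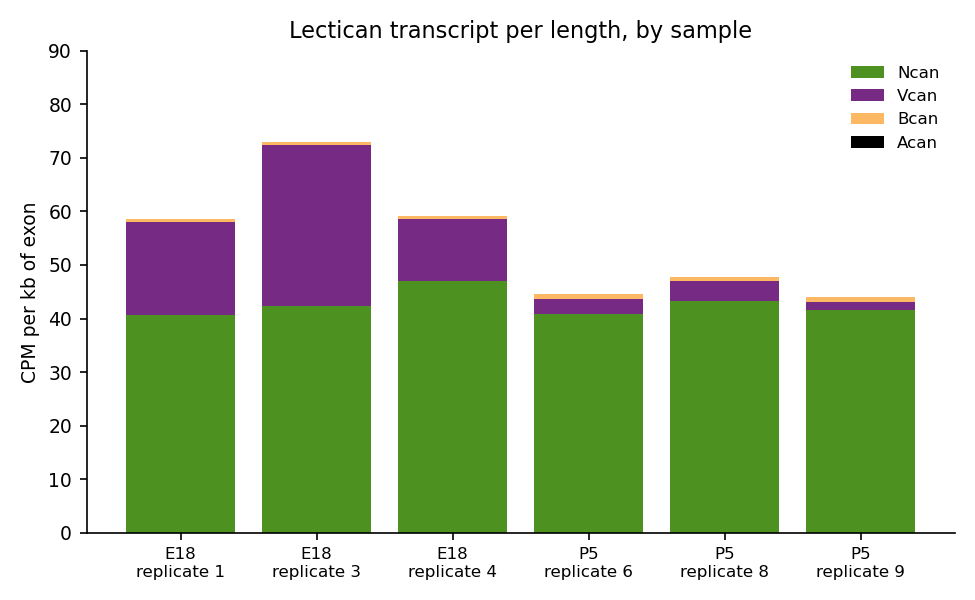
Stacked bars of CPM per kilobase of exon for the 4 lecticans in each sample. Neurocan holds 40.6 to 47.0 CPM per kilobase in every sample, the versican layer is thick in the E18 samples and thin in the P5 samples, and brevican and aggrecan hardly show.

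Hapln1, which locks lecticans to hyaluronan, was lower at E18 by a larger factor than any other member. Hapln1 (ENSMUSG00000021613.9, chromosome 13, 89539796 to 89611652, plus strand) had 0.241, 0.321 and 0.221 CPM in E18 replicates 1, 3 and 4, from 20 to 36 reads a sample. In P5 replicates 6, 8 and 9 it had 2.92, 1.77 and 6.64 CPM, so that all P5 samples were higher and P5 replicate 9 the highest by far. The log2 fold change was -3.84 (SE = 0.505, edgeR adjusted p = 0.000845), a level 14.3-fold higher at P5. Without P5 replicate 9 the log2 fold change was -3.15, still past the threshold.

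Each lectican gene of the mouse lies beside a link protein gene, an arrangement known for the whole family, and the pairs were read together. Vcan and Hapln1 share a stretch of chromosome 13, point toward each other and are 43.7 kb apart with no protein-coding gene between them. Across that gap the direction turned, with Vcan at a log2 fold change of 2.87 and Hapln1 at -3.84. The other pairs did not show such a split. Ncan lay 2.22 kb from Hapln4 on chromosome 8, and Hapln4 had a log2 fold change of -0.04 (95% interval -0.87 to 0.79). Bcan lay 21.5 kb from Hapln2 on chromosome 3, and Hapln2, at 0.448 ± 0.0984 CPM at E18 against 0.796 ± 0.148 CPM at P5 (SD, n = 3 each), was lower at E18 (log2 fold change -0.83, edgeR adjusted p = 0.0465). Acan and Hapln3 end 2 bases apart on chromosome 7, on opposite strands, so that reads at their shared end could be assigned to either gene where the counting did not use strand. Hapln3 had a log2 fold change of -0.11 (edgeR adjusted p = 0.85).

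**Figure D4:**
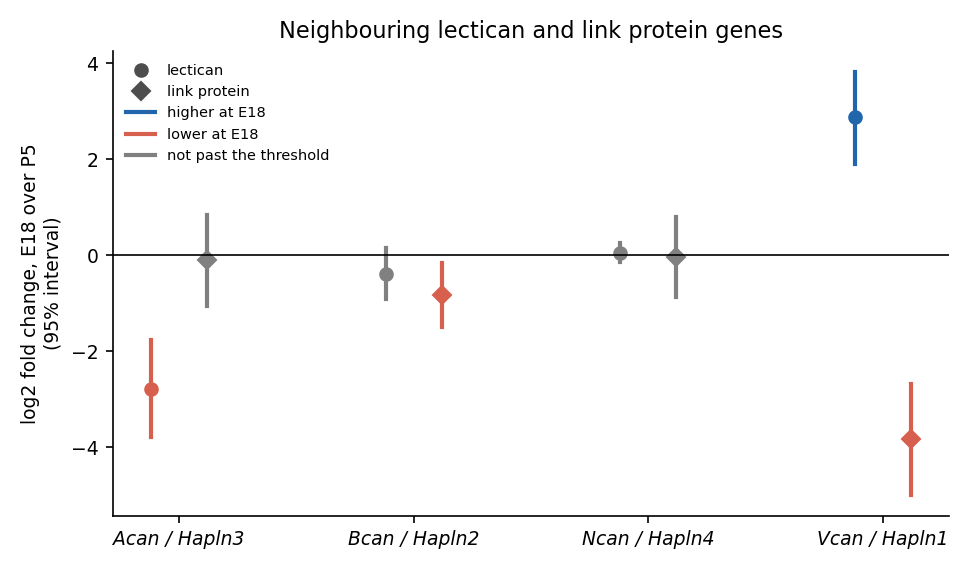
Log2 fold change of E18 over P5 with 95% intervals for each lectican (circles) and the link protein gene beside it (diamonds), coloured by direction and grey where the adjusted p was not under 0.05. The pair of Vcan at 2.87 and Hapln1 at -3.84 lies on both sides of 0.

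Promoter sequences are shown for Vcan and Hapln1, the neighbours that moved in opposite directions, and for Reln, the most abundant member. They are RefSeq sequences of GRCm38.p6, each running from 250 bases before to 50 bases after a start site, written 5′ to 3′ on the strand of the gene. Capitals mark GGGCGG on either strand, the GC box to which Sp factors bind, where overlapping matches each count, and TATAAA on either strand, which none of the 3 sequences holds.
Vcan promoter, chr13:89742463-89742762, minus strand: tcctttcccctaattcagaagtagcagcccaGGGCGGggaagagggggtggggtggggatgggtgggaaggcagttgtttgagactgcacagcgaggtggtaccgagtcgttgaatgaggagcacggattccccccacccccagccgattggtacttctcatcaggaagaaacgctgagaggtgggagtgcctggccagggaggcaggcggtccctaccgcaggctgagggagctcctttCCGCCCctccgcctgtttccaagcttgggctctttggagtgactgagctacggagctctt
Hapln1 promoter, chr13:89540386-89540685, plus strand: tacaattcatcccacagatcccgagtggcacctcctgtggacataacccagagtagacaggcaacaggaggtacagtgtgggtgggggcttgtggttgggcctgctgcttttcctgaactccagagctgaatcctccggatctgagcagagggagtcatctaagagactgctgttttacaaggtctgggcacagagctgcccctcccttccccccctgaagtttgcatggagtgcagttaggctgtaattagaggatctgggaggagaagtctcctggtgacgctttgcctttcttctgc
Reln promoter, chr5:22344656-22344955, minus strand: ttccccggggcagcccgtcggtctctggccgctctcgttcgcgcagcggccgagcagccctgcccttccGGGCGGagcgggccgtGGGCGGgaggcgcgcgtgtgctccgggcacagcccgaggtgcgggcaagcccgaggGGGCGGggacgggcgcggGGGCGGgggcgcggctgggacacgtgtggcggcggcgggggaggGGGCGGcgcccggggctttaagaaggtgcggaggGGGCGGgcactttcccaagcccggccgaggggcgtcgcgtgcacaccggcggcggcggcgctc

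The 3 windows differ in base composition. The Reln promoter had 80.7% G and C, 47 CG dinucleotides and 6 GC boxes, and the Vcan promoter 61.0%, 12 and 2. The Hapln1 promoter had 54.3% G and C, 3 CG dinucleotides and no GC box. The Hapln1 window, from 89540386 to 89540685, lies wholly inside the gene as placed above, which begins at 89539796. The Vcan and Reln windows span the starts of their genes, so the Hapln1 window may not be comparable with them. GGGCGG was found in 35.7% of all 32851 promoters of that length and in 58.5% of those of genes tested here. Of the 9 members with a promoter in the table, 7 had the GC box. Hapln1 and Tnr had none. TATAAA was found in Ncan and Tnc, against 13.6% of all promoters and 7.78% of those of genes tested. Cspg5 was not among the promoters. These matches describe the letters only.

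Both tenascins were lower at E18 than at P5, Tnr being the tenascin of mature nets and Tnc the one known from young and injured tissue. Tnr (ENSMUSG00000015829.13, chromosome 1, 159523769 to 159931729, plus strand) had 5.26, 9.01 and 3.69 CPM in E18 replicates 1, 3 and 4 and 15.2, 10.7 and 22.7 CPM in P5 replicates 6, 8 and 9. The samples did not overlap, although E18 replicate 3 and P5 replicate 8 came close. The log2 fold change was -1.43 (SE = 0.354, edgeR adjusted p = 0.012), and it was -2.12 with E18 replicate 4 alone. Tnc (ENSMUSG00000028364.15, chromosome 4, 63959785 to 64047015, minus strand) had 3.70, 4.13 and 2.57 CPM in E18 replicates 1, 3 and 4 and 8.55, 6.87 and 11.6 CPM in P5 replicates 6, 8 and 9. It was lower in every E18 sample, with a log2 fold change of -1.37 (SE = 0.247, edgeR adjusted p = 0.00303).

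A shift in the proportion of the tenascins to each other was not detectable with 3 samples an age. Per length, Tnc made up 52.5%, 41.9% and 52.3% of their sum in E18 replicates 1, 3 and 4 and 46.9%, 50.1% and 44.5% in P5 replicates 6, 8 and 9. The means of 48.9% ± 6.09 and 47.2% ± 2.82 (SD, n = 3 each) differed by 1.71 percentage points, less than the spread (exact permutation p = 0.8, two-sided, where 0.1 is the smallest possible), and by 5.22 points without E18 replicate 3. The other tenascins, named after their values were seen, were near the limit of detection. Tnxb had 0.169 to 0.309 CPM at E18 and 0.681 to 1.12 at P5, and Tnn at most 0.0362 CPM at E18 and 0.169 to 0.617 at P5. Tnxb was lower at E18 (edgeR adjusted p = 0.00378). Tnn, with 3, 2 and 0 reads in E18 replicates 1, 3 and 4 and 15, 19 and 58 in P5 replicates 6, 8 and 9, entered the test only through its P5 samples, and its values are a description.

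Tenascins and lecticans are also made by glia and by cells of blood vessels, so the markers of those cells are set beside these results. Of 12 genes of Müller glia and astrocytes, 3 of the 11 tested were higher at E18 and 2 lower, and the list summed to 529 to 625 CPM at E18 and 531 to 554 at P5. Glul (313 to 326 CPM at E18 and 230 to 273 at P5) and Dkk3 made up most of each sum. The sums therefore say little about the other genes of the list. Clu (25.3 ± 3.76 against 57.9 ± 17.8 CPM) and Dkk3 (123 ± 28.5 against 184 ± 17.5 CPM) were the pair lower at E18 (SD, n = 3 each). Glul, Vim and Sox9 were higher at E18, and Gfap and Aqp4, also of that list, had at most 0.117 and 0.410 CPM in any sample. The 10 genes of the oligodendrocyte lineage summed to 94.1 to 94.7 CPM at E18 and 58.4 to 76.8 at P5, with Mog higher at E18 and Olig1, Mag and Cldn11 lower, of 8 tested. Olig1 had at most 0.0241 CPM at E18 and 0.106 to 0.237 at P5, Mag 0.785 to 1.05 and 1.88 to 2.09, and Cldn11 0.169 to 0.374 and 1.24 to 2.06. With 2, 1 and 1 reads in E18 replicates 1, 3 and 4, Olig1 entered the test only through its P5 samples, and its values are a description. Sox10, which defines that lineage, had at most 0.110 CPM in any sample, and Olig2 had 0.0552 to 1.22 CPM at E18 and no read in P5 replicates 6 and 9.

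The 10 genes of endothelial cells and pericytes summed to 73.4, 65.0 and 16.7 CPM in E18 replicates 1, 3 and 4 and to 15.4 and 15.0 CPM in P5 replicates 6 and 9, with P5 replicate 8 between E18 replicates 4 and 3 and with 1 of 9 tested higher at E18 and 3 lower. Kdr, the higher one, had 69.5, 62.9 and 14.1 CPM in E18 replicates 1, 3 and 4 and 4.79 to 11.3 at P5. It made up most of each E18 sum, so those sums say little about the other genes of the list. Rgs5 (0.0964 to 0.133 against 1.47 to 3.08 CPM), Pecam1 (0.562 to 0.895 against 2.09 to 2.67) and Tek (0.544 to 1.01 against 2.26 to 3.64) were lower at E18, as the tenascins and Hapln1 were. With 8, 12 and 12 reads in E18 replicates 1, 3 and 4, Rgs5 too entered the test only through its P5 samples, and its values are a description. Cdh5, which defines endothelium, had at most 0.0609 CPM in any sample. Among the P5 samples, replicate 9 was the highest and replicate 8 the lowest in Hapln1, Tnr, Tnc and Cspg5. The summed RGC list (8401, 7707 and 9058 CPM in P5 replicates 6, 8 and 9) had that order, and so did Clu, Cldn11, Rgs5 and Tek. Dkk3, Olig1, Mag and Pecam1, also lower at E18, did not have it. Nefl, the largest part of the RGC sum, had the order too (2919.5, 2361.3 and 3462.1 CPM in P5 replicates 6, 8 and 9). Pou4f1 (535.7, 711.9 and 482.9 CPM) and Isl1 (262.1, 309.2 and 207.4 CPM) of the RGC list had the reverse order. The RGC sum therefore says little about the other genes of its list. The part of any of these cells in the results for Hapln1, Tnr, Tnc, Cspg5 and Acan was not tested.

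The transmembrane proteoglycans moved in opposite directions. Cspg5 (neuroglycan C), a neuronal proteoglycan with a growth-factor-like domain, was lower at E18. Cspg5 (ENSMUSG00000032482.9, chromosome 9, 110243783 to 110262576, plus strand) had 68.4, 64.6 and 82.0 CPM in E18 replicates 1, 3 and 4 and 173, 149 and 192 CPM in P5 replicates 6, 8 and 9. The ages stood well apart, and the log2 fold change of -1.26 had the smallest adjusted p of the members (SE = 0.128, edgeR adjusted p = 0.000326). Ptprz1, a receptor phosphatase whose ectodomain is released as phosphacan, was higher at E18. Ptprz1 (ENSMUSG00000068748.7, chromosome 6, 22875502 to 23052916, plus strand) had 17.9, 12.5 and 11.3 CPM in E18 replicates 1, 3 and 4 and 8.10, 5.93 and 6.82 CPM in P5 replicates 6, 8 and 9. The log2 fold change was 1.00 (SE = 0.203, edgeR adjusted p = 0.00516). The order of the E18 samples was that of the progenitor list, and Slc1a3, a gene of radial and Müller glia, had 16.2, 2.80 and 0.475 CPM in E18 replicates 1, 3 and 4 against 1.11 to 1.78 at P5. The part of such cells in the Ptprz1 result was not tested. With E18 replicate 4 alone its log2 fold change was 0.71 and did not pass (edgeR adjusted p = 0.141).

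Reelin was the most abundant member and stood at position 11 among all genes by mean CPM, not divided by length. Reln (ENSMUSG00000042453.14, chromosome 5, 21884454 to 22344702, minus strand) had 2832, 3027 and 3530 CPM in E18 replicates 1, 3 and 4 and 2297, 2688 and 2371 CPM in P5 replicates 6, 8 and 9. It held 79.1% to 85.6% of all reads counted on the 10 genes. The E18 samples lay above the P5 samples with a narrow gap, and the log2 fold change was 0.35 (SE = 0.105, edgeR adjusted p = 0.0259). That call was lost when E18 replicate 3, E18 replicate 4, P5 replicate 6 or P5 replicate 9 was left out, with adjusted p of 0.0559, 0.0896, 0.0881 and 0.0663 in edgeR.

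Of 13 genes of the reelin pathway, 3 were higher at E18 and 3 lower, and the median log2 fold change was -0.07. The 46.2% of that list that passed is close to the 43.4% of all genes. The reelin receptors Vldlr and Lrp8 were expressed at both ages without passing the test. Vldlr had 124 ± 10.7 CPM at E18 against 130 ± 13.6 CPM at P5 (SD, n = 3 each), with a log2 fold change of -0.07 (95% interval -0.32 to 0.17). Lrp8 had a log2 fold change of 0.04 (95% interval -0.21 to 0.29). Dab1, the adaptor that carries the signal inward from both receptors, was lower at E18 (log2 fold change -1.46), with 4.59 to 8.31 CPM at E18 and 17.5 to 20.2 CPM at P5 (edgeR adjusted p = 0.0012). Among the kinases and adaptors further on, Yes1 was lower at E18 (log2 fold change -0.45), and Nck2 and Crkl were higher (0.46 and 0.44).

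By CPM per kilobase of exon, the order at E18 was Reln (267.5), Ncan (43.3), Vcan (19.7), Cspg5 (7.27), Ptprz1 (1.39), Bcan (0.643), Tnr (0.490), Tnc (0.446), Hapln1 (0.0457) and Acan (0.00994). The samples of Bcan and Tnr overlapped, as did those of Tnr and Tnc, and other neighbours in the order did not. At P5 the order was Reln (209.6), Ncan (41.9), Cspg5 (17.4), Vcan (2.70), Tnr (1.33), Tnc (1.16), Bcan (0.843), Ptprz1 (0.695), Hapln1 (0.661) and Acan (0.0677). From Vcan down to Hapln1 each gene overlapped the next, and Cspg5 and Vcan had changed places. With the length of the transcript named in the table, Vcan stood above Ncan at E18 (116 against 43.3 CPM per kilobase), and Cspg5 overlapped Ncan at P5.

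Genes that build, trim and bind this matrix were followed in 9 lists of 110 genes, 106 of which were tested. Of these 23 were higher at E18 and 35 lower, and the median log2 fold change was -0.11. These 58 of 106 compare with 43.4% of all genes tested, and by list the share that passed ran from 33.3% to 66.7%. Of the 31 genes named from these lists by size of change, 16 still passed in the same direction with E18 replicate 4 alone, 14 no longer passed and Has2 turned. In the hyaluronan list, 3 of 12 genes were higher and 5 lower. Has2, a hyaluronan synthase, had 14.5, 23.5 and 0.298 CPM in E18 replicates 1, 3 and 4 and 0.395 to 1.02 at P5, so that E18 replicate 4 lay under the P5 samples although the fit called the gene (log2 fold change 4.28, edgeR adjusted p = 0.017). With E18 replicate 4 alone the Has2 direction turned (log2 fold change -1.12, edgeR adjusted p = 0.323). Tmem2, a cell-surface hyaluronidase, was higher in every E18 sample (log2 fold change 1.02, adjusted p = 0.00584). The hyaluronan receptor Cd44 (-2.32, adjusted p = 0.00393) and Cemip, which acts in hyaluronan breakdown (-1.54, adjusted p = 0.000309), were lower at E18, Cd44 at 0.397 ± 0.115 and 1.98 ± 1.01 CPM (SD, n = 3 each).

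Of 12 genes of chondroitin chain synthesis, 4 were lower at E18 and none higher, with a median log2 fold change of -0.28. The 33.3% of that list that passed is below the 43.4% of all genes. Chsy3, a chain polymerase, had 3.87 ± 0.168 CPM at E18 against 9.76 ± 0.395 CPM at P5 (SD, n = 3 each; log2 fold change -1.34, edgeR adjusted p = 0.000348). Csgalnact1, which starts the chain, had a log2 fold change of -1.10 (adjusted p = 0.00994). Among the sulfotransferases and epimerases, 3 of 9 genes tested were higher and 2 lower. Ust (1.03) and Chst15 (0.45), which add sulfate to chondroitin, were higher at E18, and Chst12 (-0.53) and the epimerase Dsel (-0.33) were lower.

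Proteases of the matrix split, with 4 of 12 genes tested higher at E18 and 3 lower. Mmp14, a membrane-bound matrix metalloprotease, had 16.3, 21.5 and 16.3 CPM in E18 replicates 1, 3 and 4 and 2.96 to 3.70 CPM at P5 (log2 fold change 2.47, edgeR adjusted p = 9.07e-05). Adamts1, a versican-cleaving protease, was higher as well (1.41), while Mmp9 (-2.57) and Adamts9 (-2.01), another versican-cleaving protease, were lower. Of 6 protease inhibitors, 3 were lower at E18 and none higher. Serpine2 had 14.2 ± 1.64 CPM at E18 against 51.5 ± 14.8 CPM at P5 (SD, n = 3 each; log2 fold change -1.86, adjusted p = 0.000435), and Timp2 a log2 fold change of -1.22 (edgeR adjusted p = 0.000336).

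Among receptors and ligands, 4 of 16 genes were higher at E18 and 4 lower. Cntn1 (contactin-1), a neuronal binding partner of tenascin-R and Ptprz1, had 236, 240 and 294 CPM in E18 replicates 1, 3 and 4 and 1208, 894 and 1369 CPM in P5 replicates 6, 8 and 9 (log2 fold change -2.17, edgeR adjusted p = 0.000118). Itga8, an integrin subunit, was lower at E18 too (-1.80). Mdk (midkine), a ligand of Ptprz1, was higher, with 4.98, 3.37 and 1.01 CPM at E18 in the order of the progenitor list and 0.361 to 0.579 CPM at P5 (log2 fold change 2.64, adjusted p = 0.00487). Itgb8, an integrin subunit, was higher by 1.38 on the log2 scale. With E18 replicate 4 alone neither passed (Mdk 1.02, edgeR adjusted p = 0.224, and Itgb8 0.90, edgeR adjusted p = 0.262). Ptprs and Ptprf, phosphatases that bind chondroitin sulfate chains, were named after their values were seen. Ptprs had 582 ± 28.2 CPM at E18 against 416 ± 33.2 CPM at P5 (SD, n = 3 each; log2 fold change 0.49, edgeR adjusted p = 0.00352), and Ptprf a log2 fold change of 0.44 (adjusted p = 0.00629).

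The list of other chondroitin sulfate proteoglycans and tenascins had 7 of 12 genes tested lower at E18 and 1 higher. Without Tnn and Tnxb, described above, 5 of 10 were lower and 1 higher, with a median log2 fold change of -0.60, and Fmod, 1 of the 5, had at most 6 reads in any E18 sample and entered the test only through P5. Spock3 (-1.19) and App (-0.68), some forms of which carry such a chain, were lower, and Spock1 (0.72) was higher. Heparan sulfate proteoglycans, which carry a related sugar chain, divided into 5 higher and 4 lower of 14. Gpc3 and Gpc2, glypicans anchored in the membrane, were higher at E18 (log2 fold changes 3.05 and 2.17), Gpc2 at 343 ± 32.8 CPM against 76.4 ± 33.3 (SD, n = 3 each). Gpc5 (-3.92) and the syndecan Sdc2 (-1.35) were lower.

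**Figure D5:**
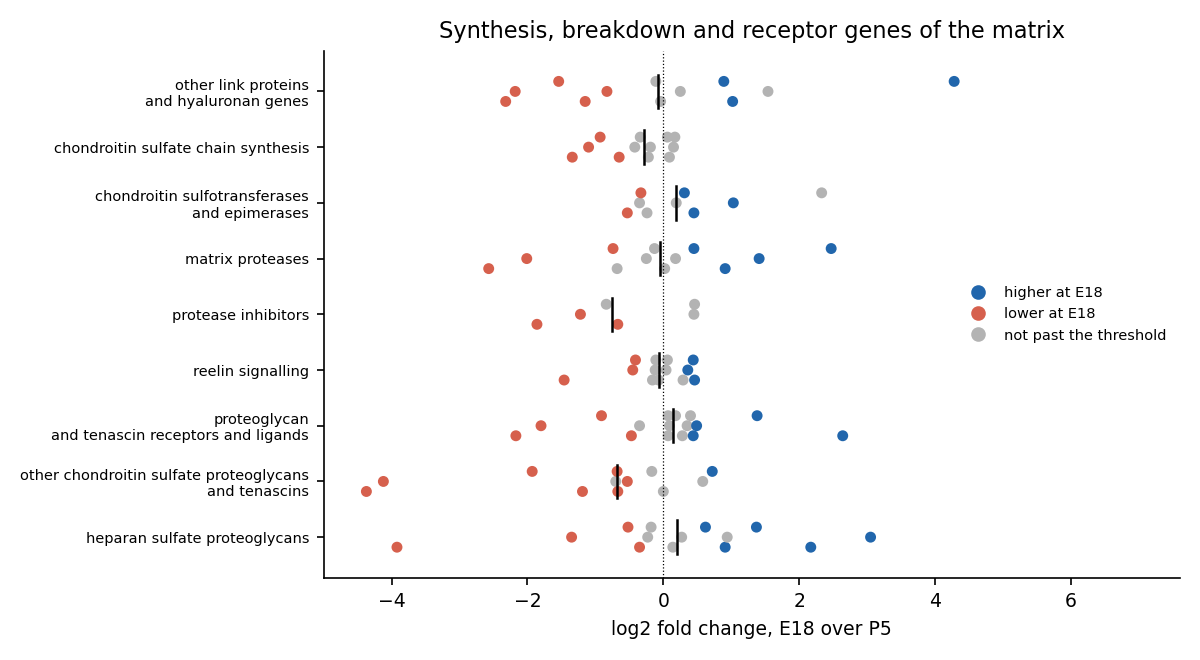
Log2 fold change of E18 over P5 of each gene tested in the 9 lists, coloured by direction and grey where the adjusted p was not under 0.05, with a black bar at the median of each list. Calls fell on both sides of 0 in 7 lists and on the negative side alone in chain synthesis and protease inhibitors.

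The genes whose log2 CPM ran most nearly parallel to Vcan over the 6 samples, among the 9719 genes whose mean CPM reached 10, were Rere (Pearson's r = 0.999), Ddx6 (0.998) and Nnat (0.998). For Hapln1 they were Ndufa9, Caprin2 and Slc16a1 (0.998 each). These values describe 6 samples of 2 ages that share the same libraries, and the fold changes were smaller than those of the members, with Rere at 1.00 and Slc16a1 at -0.79 on the log2 scale.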

How the data were processed

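RNA of immunopanned RGCs from 3 E18 and 3 P5 samples was depleted of ribosomal RNA by the authors (the labels name polyA RNA), sequenced in pairs of 100 bases, aligned to mm10 with STAR 2.4.0 and counted on RefSeq genes with HT-seq 0.6.1. The raw counts deposited by the authors were used. Their normalized counts, a signal scaled for library size, and their log2 fold changes, p-values with false discovery rates and rank (given as other) were deposited too and not used. Groups follow the sample titles. One E18 column also carries the numbers 2 and 5 and was taken as replicate 1, and whether it pools preparations is not given in the sources used here. Strand and multi-mapping settings are not given in the sources used here.

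Counts were TMM-normalized. For 16449 genes that passed its filter, edgeR 4.0.16 (R 4.3.3) gave quasi-likelihood p-values, with Benjamini-Hochberg adjustment, a threshold of 0.05 and E18 over P5 as direction. Standard errors and 95% intervals come from that fit. The test was checked on simulated counts. Replicates differed beyond sampling noise, with a chi-square per degree of freedom of 26.0 to 121 between samples of one age, so this spread sets the precision of most genes and read number that of Acan. Exon lengths and coordinates are from GENCODE M21 (mm10) and promoters from RefSeq. Members and lists were chosen with earlier results of these data known. All members are named, and from each list the 2 largest rises and falls past the threshold with a mean of at least 1 CPM. Alternatives were DESeq2 1.42.0, other normalizations, tests and filters, and omission of samples. E18 replicate 4 alone and transcript lengths were added after the data were seen.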

Additional observations from a re-analysis of the deposited data

How the results depend on the processing

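Vcan, Hapln1, Tnr, Tnc and Cspg5 kept their direction and passed under every alternative, with a highest adjusted p over all fits of 0.0433, for Tnr. With a mean of at least 1 CPM required, Acan was not tested. Leaving out 1 sample at a time, 7 to 9 members passed, and the log2 fold change was 0.26 to 0.42 for Reln, -0.59 to -0.30 for Bcan and -0.01 to 0.10 for Ncan, which turned without E18 replicate 4. The difference in the share of Tnc was -0.108 to 5.22 percentage points and turned without E18 replicate 1. Over all genes, 4575 (without E18 replicate 3) to 8796 (without P5 replicate 8) passed, against 7135 with all samples. With E18 replicate 4 alone, 1633 genes and 25 pathway genes passed, against 58 pathway genes with all samples, Ptprz1 had a log2 fold change of 0.71 and did not pass, and Has2 turned to -1.12. That fit has fewer samples. No paired analysis was possible because the ages share no replicate number. Read number limits Acan, at under 10 reads in each E18 sample.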
